A study of Homo sapiens with 6 samples.

Results

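The 44 genes described here act at entry into mitosis, at exit from it, in condensation of the chromosomes and in cytokinesis. They were picked by symbol from the 30327 genes of the count table, by a rule that itself uses no measured value, and they fall into 7 groups by role. The members and the role groups were, however, chosen with earlier results of these data known. Of the 44, 43 had enough reads to be tested and NUSAP1 did not. The cells were SK-BR-3, an established human breast adenocarcinoma line that carries an amplified ERBB2 (HER2) gene, and poly(A) RNA was sequenced in 6 libraries. The 3 si_NC libraries came from cells given a nontargeting siRNA, and the 3 si_GRB2 libraries from cells given an siRNA against GRB2, the adaptor protein that couples receptor tyrosine kinases such as HER2 to SOS and RAS. No further agent, genotype or time point separates the groups in the labels. The treatment is a transient transfection of a cell population. The sample titles and genotype labels of the treated libraries name GRB2 overexpression where their descriptions read si_GRB2, so the level of GRB2 was examined first. Nothing in the labels says whether libraries of a group came from separate cultures, so p-values measure the spread between these libraries, which may be technical.

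GRB2 (ENSG00000177885, chr17:75318076-75405709 on GRCh38) stood at 124, 129.5 and 126 CPM in si_NC and 27.8, 28.1 and 29.6 CPM in si_GRB2. CPM here are the reads of a gene relative to the reads of its library on the 15801 genes tested, scaled with TMM factors. Every library labelled si_GRB2 was far below every si_NC library, with a log2 fold change of -2.15 ± 0.040 (here and below, ± after a log2 fold change is its SE) and an edgeR adjusted p = 3.87e-15. The direction is that of a knockdown, not of overexpression. Reads counted on genes numbered 24810378 in the smallest library and 28532480 in the largest. Mitochondrial genes took 8.66% to 9.02% of the counts in si_NC and 7.59% to 7.80% in si_GRB2. Apart from GATA3 and CDH1, markers of luminal HER2 epithelium were well expressed. They moved between the groups, 6 of the 9 tested lower and 1 higher. The 2 not called were GATA3 (3.06 to 4.41 CPM, 0.28, adjusted p = 0.141) and TFAP2A (0.057, adjusted p = 0.200). Both were higher in every si_GRB2 library than in any si_NC library. ERBB2 (3415 to 4229 CPM) was higher at a log2 fold change of 0.24 (adjusted p = 1.14e-06), and KRT18 (-0.55), EPCAM (-0.55), KRT8 (-0.41), KRT7 (-0.26), GRB7 (-0.23) and KRT19 (-0.20) were lower. The epithelial cadherin CDH1 had 9 reads in all 6 libraries together, and the estrogen receptor gene ESR1 was at 0.856 to 1.51 CPM. Of 10 markers of other cell types (leukocytes, macrophages, endothelium, fibroblasts, pericytes and basal epithelium), 4 passed the low-count filter. The sum of the 10 was 8.08 to 9.16 CPM in si_NC and 6.95 to 7.55 CPM in si_GRB2, none was at 0 in all 6 libraries, and PTPRC, which defines leukocytes, had 2 reads in all. The part of the mitochondrial share, of the luminal markers and of these other markers in the results below was not tested.

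Cells enter mitosis when CDK1 bound to a cyclin of the A or B type is freed of its inhibitory phosphates. WEE1 and PKMYT1 place those phosphates, CDC25 phosphatases remove them, and PLK1 and AURKA drive the switch. Condensins and topoisomerase II then compact the chromosomes. Exit follows when the anaphase-promoting complex (APC/C), with CDC20 and the ubiquitin-conjugating enzyme UBE2C, marks cyclin B and securin for destruction, which frees separase to cut cohesin. Transcripts of most of these proteins peak in G2 and M phase, and many of their promoters carry a cell cycle genes homology region (CHR) beside CCAAT boxes bound by NF-Y, through which the DREAM, B-MYB and FOXM1 complexes are known to act.

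Of the 43 members tested, 26 fell in si_GRB2 and 0 rose at an edgeR adjusted p under 0.05. Over all 15801 genes tested, 15.5% were lower and 15.2% were higher by the same rule, against 60.5% and 0 of the members. The falls were small. Log2 fold changes of the members ran from -0.31 to 0.07 with a median of -0.13, where the median over all genes tested was 0.0019, and 41 of the 43 were negative. None passed a fold change of 1.5 with an adjusted p under 0.01, limits that 2.52% of all genes tested passed in either direction. At an unadjusted p under 0.05, 28 members were lower and 0 higher, where 6229 of the 15801 genes tested passed in either direction. DESeq2 gave 23 lower and 0 higher, without CCNB2, ESPL1 and HMMR. Of all genes it tested, 13.8% were lower and 13.5% higher. No member was higher, either, in limma on log2(FPKM + 1), in which 5 were lower. There 1.89% of all genes tested were lower and 2.79% higher. In bulk RNA, fewer cells in mitosis and less of each RNA per cell cannot be told apart.

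Taken library by library, the summed level of the 44 members was 4966, 5048 and 4963 CPM in si_NC and 4467, 4564 and 4537 CPM in si_GRB2. The groups did not overlap. Each of the 3 si_GRB2 values lay below each of the 3 si_NC values in 26 of the 43 members tested (60.5%), as in 21.2% of all genes tested, and the opposite order occurred in 0 members and in 21.1% of all genes. These 26 were not exactly the 26 called. MKI67 was called with overlapping groups, and CDC25C was separated between groups without passing the test.

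**Figure D1:**
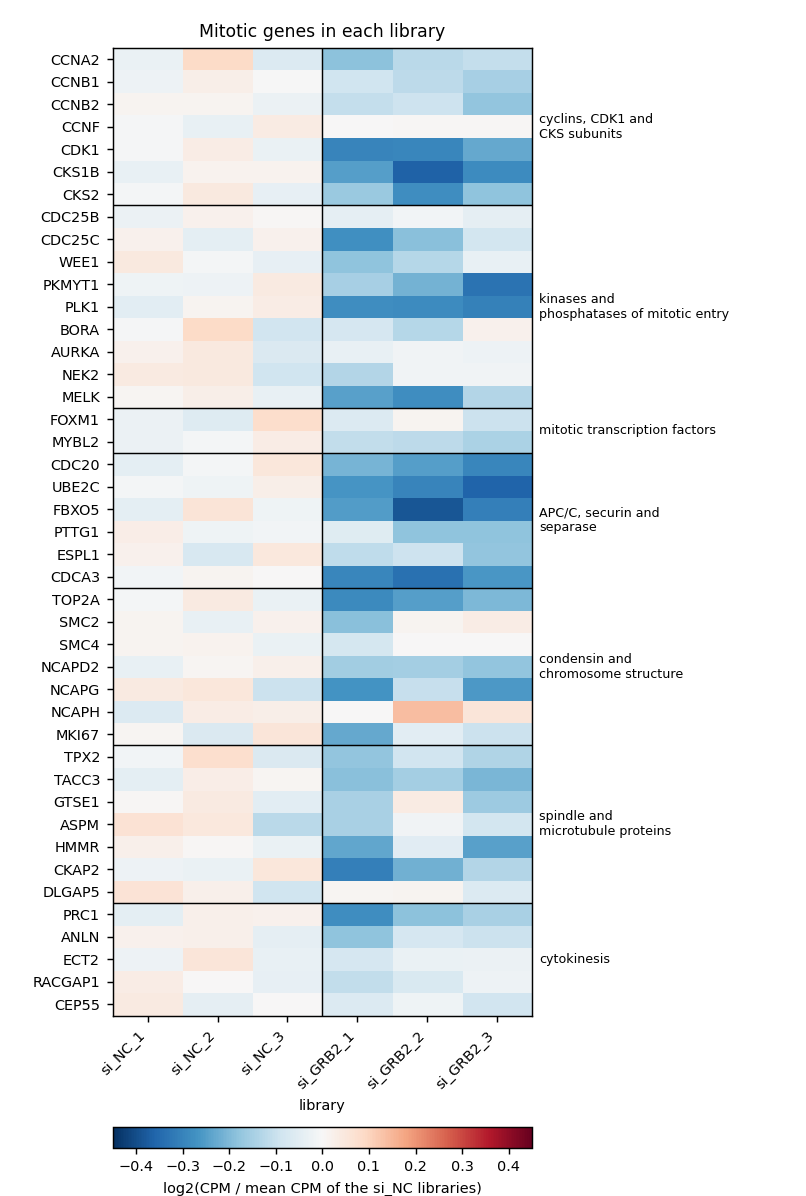
Each row is a member and each column a library, coloured by the log2 ratio of its CPM to the mean of the 3 si_NC libraries, with blue below and red above that mean. The si_GRB2 columns are blue for most rows of the APC/C group and for CDK1, CKS1B, PLK1 and TOP2A, and near white for CCNF, CDC25B, AURKA and SMC4.

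High expression makes a small change easier to call, and the members are well expressed. Among protein-coding genes in the top class when split by mean CPM into 4 classes of equal size, 27% were lower and 24.8% higher, and 19 of the 25 members in that class were lower. In the next class 20.7% were lower, against 7 of 16 members. The class below it held 2 members, neither of which was called, and the lowest class held none. Fold changes also moved with length. With the same genes split into 4 classes by length of exon sequence, in the shortest class 23.3% were lower and the median log2 fold change was -0.038, and in the longest class 14% were lower and the median was 0.034. Members fell in both, 10 of 14 in the shortest class and 3 of 6 in the longest.

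Scaling by total counts without TMM factors, an alternative chosen after the data were seen, left 17 members lower and 0 higher. It also tilted the whole table, to 3447 genes higher and 1733 lower, where TMM gave 2396 higher and 2442 lower, and limma on log2(FPKM + 1) gave 834 higher and 566 lower. Under total counts the members' median was -0.078 and that of all genes 0.052. None of the 26 members called lower changed direction in any of the 16 refits, but CDC25B, AURKA, FOXM1, SMC2, SMC4, DLGAP5 and ECT2, none of them called, turned positive under total counts.

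**Figure D2:**
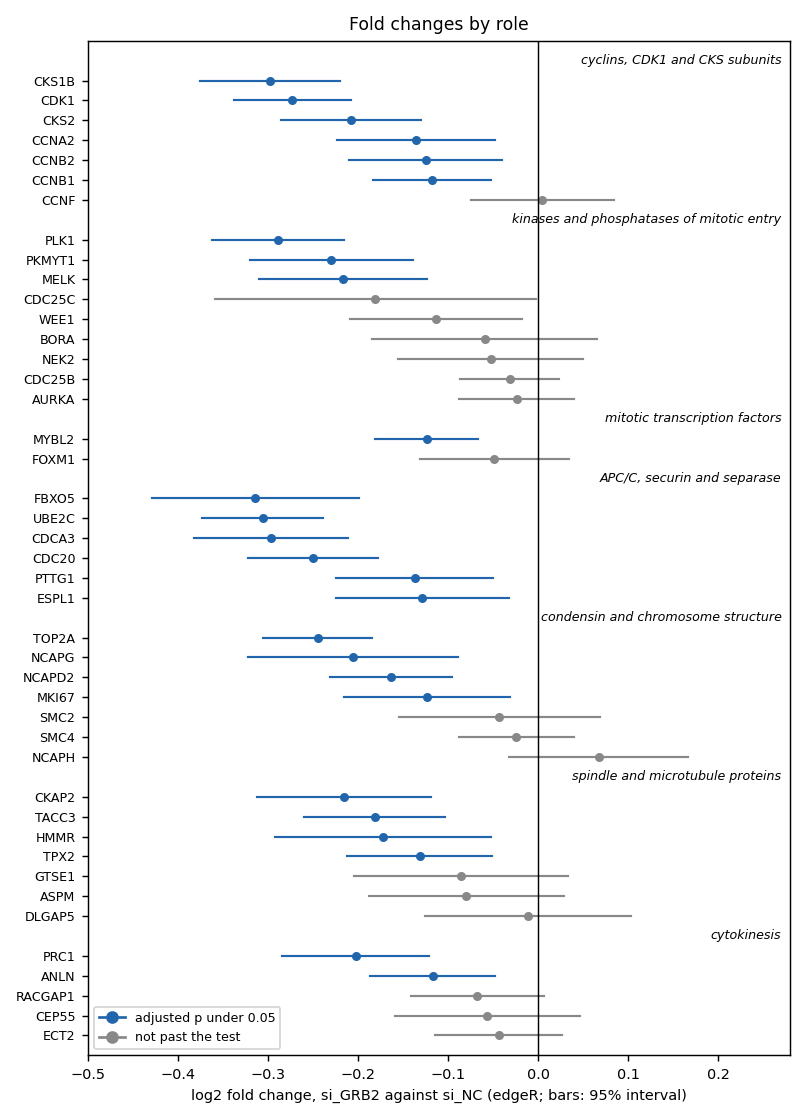
Points give the edgeR log2 fold change of each member tested, si_GRB2 against si_NC, with its 95% interval as a bar, grouped by role and ordered within a role, and blue marks an adjusted p under 0.05. All 6 members of the APC/C, securin and separase group are blue. Every blue interval lies below 0, as the call itself requires, and so do the grey intervals of CDC25C and WEE1.

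Promoter sequence is shown here because most members share 2 short motifs, which the choice by symbol did not use. RefSeq windows from 250 bases before to 50 bases after the start site (GRCh38.p14) were found for 37 of the 44 members, 8 of them with more than 1 window. Windows were not found for PKMYT1, WEE1, FOXM1, UBE2C, RACGAP1, TPX2 and AURKA. Searched on both strands, the CHR letters TTTGAA or TTCGAA occurred in 28 of the 37 members (75.7%), in 19.5% of all 27305 genes of the promoter table and in 15.3% of the 10689 of these tested here. CCAAT occurred in 29 of 37 (78.4%), against 39.7% of all genes and 43.1% of those tested here. Both occurred in 24 of 37 (64.9%), against 7.85% and 6.57%. Per window of the same length, 16.4% of all 35116 windows held the CHR letters, 34.6% CCAAT and 6.38% both. The E2F letters TTTCCCGC, TTTCGCGC, TTTGCCGC or TTTGGCGC were found in 2 members (5.41%), CDK1 and NUSAP1. They occurred in 3.99% of all genes and in 6.58% of those tested here. Genes with several windows had more than 1 chance of a match, and matches may overlap at their ends, each then counting. Neither motif was more frequent among members that fell than among those that were not called, though this was not tested. The CHR letters were in 16 of 23 members that fell (69.6%) and in 11 of 13 that were not called (84.6%), and CCAAT was in 17 of 23 (73.9%) and in 11 of 13 (84.6%). A match is a run of letters, not a shown binding site.

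The stretch from 160 bases before to 20 after the start site is printed to show how the letters are arranged. It is given for 6 members that fell (CKS1B, PLK1, CDCA3, TOP2A, HMMR and PRC1) and for 2 that were not called (CCNF and DLGAP5). All were picked from members with a single window that holds both motifs, so their holding the letters is no result. Both motifs occurred in 14 of 23 members that fell and in 9 of 13 not called. Capitals mark the CHR and CCAAT letters on either strand (TTCAAA and ATTGG are their reverse complements), and each runs 5′ to 3′ along its gene. RefSeq start sites can lie inside the outer bounds of a gene given by GENCODE, as for PLK1 and HMMR. On GRCh38 the stretches are chr1:154974521-154974700 (plus strand) for CKS1B, chr16:23678729-23678908 (plus strand) for PLK1, chr12:6851267-6851446 (minus strand) for CDCA3, chr17:40417877-40418056 (minus strand) for TOP2A, chr5:163460472-163460651 (plus strand) for HMMR, chr15:90994516-90994695 (minus strand) for PRC1, chr16:2429287-2429466 (plus strand) for CCNF and chr14:55191566-55191745 (minus strand) for DLGAP5.
CKS1B: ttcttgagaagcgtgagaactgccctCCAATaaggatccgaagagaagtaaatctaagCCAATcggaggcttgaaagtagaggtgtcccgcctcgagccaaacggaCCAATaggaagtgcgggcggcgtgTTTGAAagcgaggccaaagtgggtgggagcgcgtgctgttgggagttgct
PLK1: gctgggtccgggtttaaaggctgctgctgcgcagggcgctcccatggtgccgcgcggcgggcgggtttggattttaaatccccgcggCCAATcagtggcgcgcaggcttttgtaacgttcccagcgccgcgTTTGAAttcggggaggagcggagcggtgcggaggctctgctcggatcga
CDCA3: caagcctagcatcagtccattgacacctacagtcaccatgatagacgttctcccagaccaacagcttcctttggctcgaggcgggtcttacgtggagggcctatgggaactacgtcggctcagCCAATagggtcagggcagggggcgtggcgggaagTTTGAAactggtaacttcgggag
TOP2A: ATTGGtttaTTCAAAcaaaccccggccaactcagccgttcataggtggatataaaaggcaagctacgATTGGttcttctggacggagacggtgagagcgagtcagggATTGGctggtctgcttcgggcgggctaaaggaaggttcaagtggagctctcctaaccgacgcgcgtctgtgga
HMMR: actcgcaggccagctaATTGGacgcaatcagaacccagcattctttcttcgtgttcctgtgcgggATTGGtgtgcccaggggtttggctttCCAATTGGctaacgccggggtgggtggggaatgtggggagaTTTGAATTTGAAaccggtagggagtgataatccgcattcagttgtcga
PRC1: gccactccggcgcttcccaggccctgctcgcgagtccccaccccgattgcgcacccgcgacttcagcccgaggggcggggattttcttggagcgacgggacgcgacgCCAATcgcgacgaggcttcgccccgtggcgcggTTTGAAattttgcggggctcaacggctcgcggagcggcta
CCNF: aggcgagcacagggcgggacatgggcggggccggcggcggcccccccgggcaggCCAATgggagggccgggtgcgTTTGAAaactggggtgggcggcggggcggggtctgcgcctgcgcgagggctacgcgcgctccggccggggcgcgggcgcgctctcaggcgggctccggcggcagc
DLGAP5: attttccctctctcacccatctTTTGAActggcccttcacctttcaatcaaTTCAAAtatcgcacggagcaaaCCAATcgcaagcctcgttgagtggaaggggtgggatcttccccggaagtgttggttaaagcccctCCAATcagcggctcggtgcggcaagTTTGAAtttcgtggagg
In CKS1B, PLK1 and PRC1 the CHR letters lie within 50 bases upstream of the start with CCAAT before them, and 15 of the 37 members have a whole CHR match in those 50 bases. The share of all promoters with a match in that span was not computed. In CDCA3 the CHR letters, again after CCAAT, cross the start site, as a match also does in SMC2 and CEP55. HMMR carries 2 copies of them in tandem, and CCAAT on both strands of a single run of capitals. TOP2A has 3 inverted CCAAT boxes and its CHR letters near the upstream end of the stretch. CCNF and DLGAP5 hold the same letters, as the choice of stretches required, and neither has a CHR match within the 50 bases before its start. Among members that fell, CDC20, NCAPD2 and TOP2A also have CHR matches only elsewhere. GTSE1, CDC25B and CDC25C, not called, have a match in that span. The CCNF matches begin at -233 and -85, and those of DLGAP5 at -138, -109 and 3, counted from the start site.

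**Figure D3:**
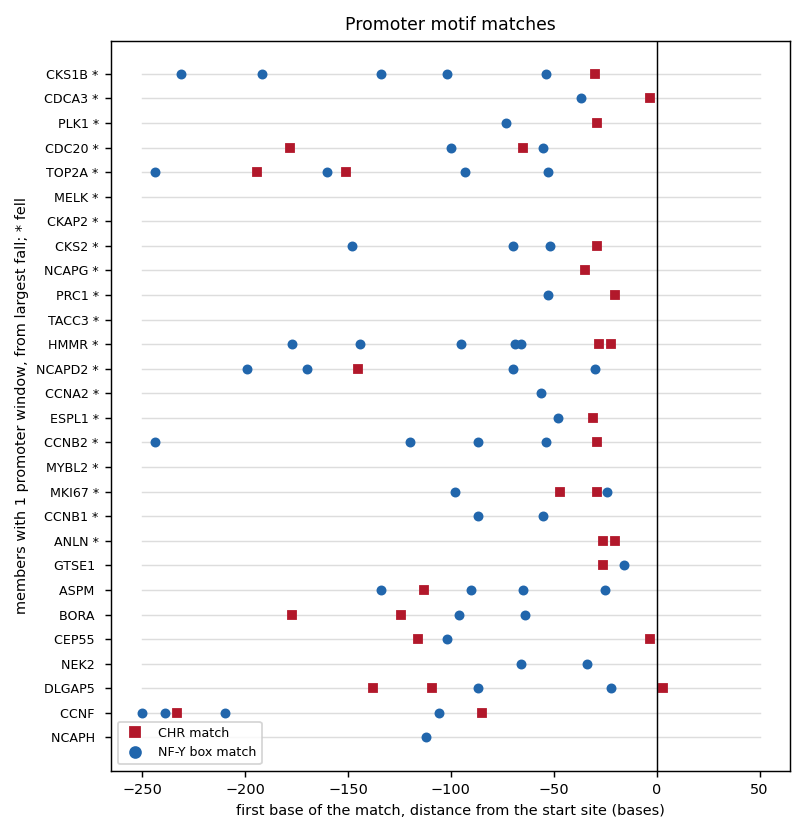
For the 28 members tested that have a single promoter window, squares give the first base of each CHR match and circles that of each NF-Y box (CCAAT) match, as distance from the start site in bases, with members ordered from the largest fall and an asterisk on those that fell. Matches lie mostly upstream of the start in members that fell and in members that were not called.

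By level per length, the members span a wide range. In the si_NC libraries CKS2 stood highest at a mean of 163 FPKM (fragments scaled to gene length and library size), followed by UBE2C at 116, MYBL2 at 92.9 and AURKA at 80.9 FPKM, and the lowest tested was CDC25C at 2.60 FPKM. Falls occurred at high and at low levels. UBE2C and FBXO5, with 5.70 FPKM, had the most negative log2 fold changes, and AURKA and CDC25B, at 66.8 FPKM, were not called.

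**Figure D4:**
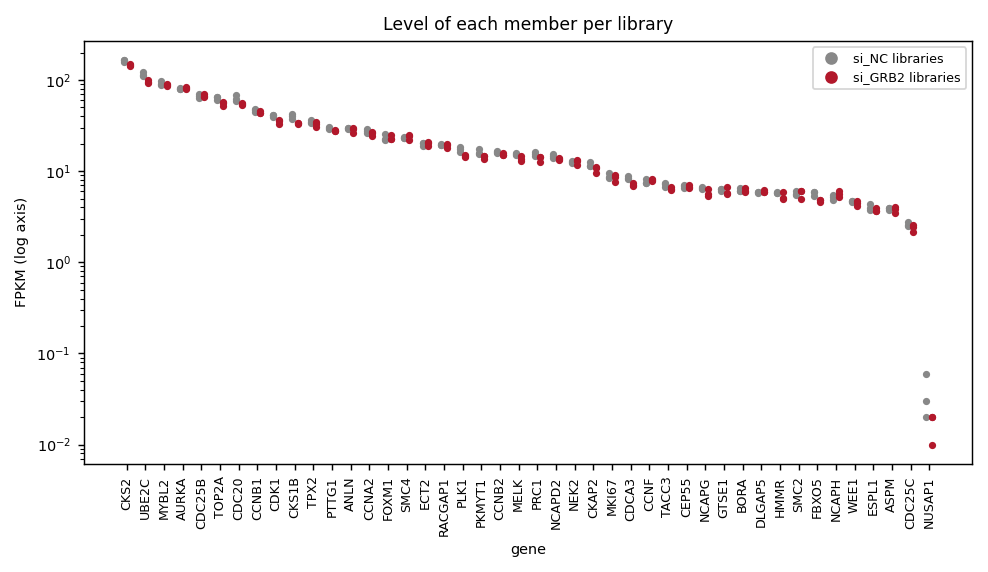
Each point is the FPKM of a member in a library on a log axis, grey for si_NC and red for si_GRB2, with members ordered by their si_NC mean from CKS2 at 163 to NUSAP1 at 0.037. The differences between groups are small beside those between genes, and NUSAP1 stands alone at the low end.

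Among cyclins, CDK1 and the CKS subunits, 6 of 7 fell and the median log2 fold change was -0.14. CDK1 (chr10:60778331-60794852), the kinase that drives mitosis, was counted at 199, 205 and 196 CPM in si_NC and 163, 163 and 171 CPM in si_GRB2. It fell by 17.2%, a log2 fold change of -0.27 ± 0.031 with edgeR adjusted p = 4.98e-06. CKS1B and CKS2, the small subunits that help CDK complexes dock on phosphorylated substrates, fell with it. CKS1B went from 113, 118 and 117 to 97.8, 90.2 and 95.4 CPM (-0.30 ± 0.037, adjusted p = 1.22e-05), and CKS2 from 124, 129 and 122 to 111, 103 and 110.1 CPM (-0.21 ± 0.037, adjusted p = 0.000406). No si_GRB2 library of these 3 genes reached the lowest si_NC library. Counts on 4 copies of CKS1B elsewhere in the genome came to 0.577% of its own. Cyclins had smaller log2 fold changes than their kinase, a difference that was not tested. CCNA2, which acts in S phase and G2, stood at 92.1, 99.8 and 89.98 CPM in si_NC and 82.8, 86.5 and 87.2 CPM in si_GRB2 (-0.14 ± 0.041, adjusted p = 0.0201). CCNB2, a B-type partner of CDK1, stood at 56.1, 56.1 and 54.5 CPM in si_NC and 51.6, 52.1 and 49.1 CPM in si_GRB2 (-0.13 ± 0.040, adjusted p = 0.0258). CCNB1, the main mitotic cyclin, fell by 0.12 on the log2 scale (adjusted p = 0.00807). CCNF, an F-box protein that marks substrates for the SCF ligase, was nearly level at 59.4 to 62.3 CPM in si_NC and 60.8 to 61.0 CPM in si_GRB2, with a 95% interval of -0.075 to 0.084 for the log2 fold change. Calls of the weaker cyclins depended on single libraries, and that of CCNB2 also on the tool, with an adjusted p = 0.0764 in DESeq2. Without si_NC replicate 2, CCNA2 was at -0.097 (adjusted p = 0.10) and CCNB2 at an adjusted p = 0.0654. CCNA2 also lost its call without si_GRB2 replicate 1 (adjusted p = 0.0892), and CCNB2 when si_NC replicate 1 (0.0600) or si_GRB2 replicate 3 (0.10) was left out. CCNA2 overlaps EXOSC9 on the opposite strand over 254 bases of exon. EXOSC9 had 34.5% as many reads as CCNA2 and fell likewise (log2 fold change -0.17, adjusted p = 0.0109). Whether counting used strand is not given in the sources used here.

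Of the 9 kinases, phosphatases and cofactors of mitotic entry, 3 fell, PLK1, PKMYT1 and MELK, and the other 6 did not pass the test. PLK1 (chr16:23677656-23690367), which activates CDC25C and starts spindle assembly, stood at 99.5, 104 and 105 CPM in si_NC and 84.8, 84.4 and 83.2 CPM in si_GRB2. It fell by 18.1%, with a log2 fold change of -0.29 ± 0.035 and an adjusted p = 9.76e-06. The si_GRB2 libraries differed among themselves by less than 2 CPM. PKMYT1, the membrane-bound kinase that inhibits CDK1, was at 99.6, 99.3 and 104 CPM in si_NC and 90.9, 87.0 and 80.1 CPM in si_GRB2 (-0.23 ± 0.043, adjusted p = 0.000626). Its opposite-strand neighbour PAQR4, with 76.7% as many reads, gave a log2 fold change of -0.24 (adjusted p = 0.000211). PAQR4 shares 1228 of the 4974 exon bases of PKMYT1, and reads in that shared part cannot be told apart without strand. MELK, a kinase expressed in dividing cells, was at 60.01, 60.7 and 58.2 CPM in si_NC and 50.3, 49.2 and 54.4 CPM in si_GRB2 (-0.22 ± 0.044, adjusted p = 0.00124). Activators and inhibitors of CDK1 thus both appear among the members that fell and among those that did not pass.

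CDC25C, a phosphatase that activates CDK1, was the nearest to these in size, at 10.9, 10.5 and 10.9 against 8.90, 9.47 and 10.2 CPM, a log2 fold change of -0.18 ± 0.084 with adjusted p = 0.121. All 3 of its si_GRB2 libraries were lower, yet it had 1623 reads in all. FAM53C on the opposite strand, which shares 293 bases of exon with CDC25C, had 331% as many and rose (log2 fold change 0.21). WEE1, the nuclear kinase that inhibits CDK1, gave -0.11 ± 0.045 with adjusted p = 0.0675 and passed the test under 4 of the alternatives, among them leaving out si_NC replicate 3 (0.0393) or si_GRB2 replicate 3 (0.0234). Small values came from BORA, the cofactor through which AURKA activates PLK1 (-0.059 ± 0.059), NEK2, the kinase that separates centrosomes (-0.053 ± 0.048), CDC25B, a further CDK1-activating phosphatase (-0.032 ± 0.026), and AURKA itself (-0.024 ± 0.030). AURKA, at 282 to 304 CPM in si_NC and 288 to 292 CPM in si_GRB2, had a 95% interval of -0.088 to 0.040, and CDC25B -0.087 to 0.024. BORA overlaps DIS3 on the opposite strand over 1180 bases of exon, and DIS3 had 189% as many reads.

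The 2 mitotic transcription factors gave 1 call. MYBL2 (B-MYB), which activates G2 genes with the MuvB complex, fell from 315, 319 and 328 to 297, 295 and 291 CPM, a log2 fold change of -0.12 ± 0.027 with adjusted p = 0.00203. FOXM1, which joins that complex on promoters of mitotic genes, did not pass, at 141, 138 and 151 CPM in si_NC and 137, 144 and 134 CPM in si_GRB2 (-0.049 ± 0.039, adjusted p = 0.395). The groups overlapped for FOXM1 and were apart for MYBL2. On the opposite strand at FOXM1, RHNO1 had 26.7% and ITFG2 18.7% as many reads. ITFG2 shares 782 bases of exon with FOXM1, and RHNO1 shares 0.

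Regulators of the APC/C with securin and separase were the group in which every member fell, 6 of 6, with a median log2 fold change of -0.27. Since the role groups were drawn with earlier results of these data known, this count is a description only. In DESeq2, separase (ESPL1) did not pass. UBE2C (chr20:45812576-45816957), the enzyme that starts ubiquitin chains for the APC/C, stood at 184, 183 and 189 CPM in si_NC and 154, 151 and 144 CPM in si_GRB2. It fell by 19.1%, with a log2 fold change of -0.31 ± 0.032 and adjusted p = 1.89e-06. FBXO5 (EMI1), the inhibitor that holds the APC/C off before mitosis, had the most negative log2 fold change of the 43, from 26.6, 28.5 and 27.1 to 23.0, 21.0 and 22.1 CPM (-0.31 ± 0.054, adjusted p = 0.000323). An enzyme that works with the complex and an inhibitor of it were thus both lower, and FBXO5 fell by 19.6%. CDCA3, an F-box-like protein linked to degradation of WEE1, was at 51.2, 52.1 and 51.7 CPM in si_NC and 42.2, 41.0 and 43.1 CPM in si_GRB2 (-0.30 ± 0.040, adjusted p = 3.36e-05). CDC20, the coactivator that brings securin and cyclin B to the APC/C, was at 154, 158 and 164 CPM in si_NC and 137, 133 and 129 CPM in si_GRB2 (-0.25 ± 0.034, adjusted p = 3.49e-05), and reads on its processed copy amounted to 1.36% of its own. For all 4 the highest si_GRB2 library lay well under the lowest si_NC library. UBE2C, FBXO5, CDCA3, CDK1 and CKS1B were the 5 members lower at an adjusted p under 0.05 in each of the 16 refits with another tool, scaling, filter, unit, block or set of libraries.

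Securin and separase gave smaller values. PTTG1, the securin that blocks separase, was at 74.6, 72.2 and 72.5 CPM in si_NC and 70.4, 64.5 and 64.5 CPM in si_GRB2 (-0.14 ± 0.041, adjusted p = 0.0182). ESPL1, separase itself, gave -0.13 ± 0.045 with adjusted p = 0.0407. Groups were apart for both, with a gap under 2 CPM. PTTG1 was not past the test without si_NC replicate 1 (adjusted p = 0.0516), without si_GRB2 replicate 2 (0.0962) or without si_GRB2 replicate 3 (0.0784). ESPL1 did not pass in DESeq2 (0.119), and with a library left out it passed only when that was si_NC replicate 2. Its adjusted p was 0.0880 and 0.112 without si_NC replicates 1 and 3, and 0.0707, 0.0597 and 0.143 without si_GRB2 replicates 1, 2 and 3.

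The condensin and chromosome structure group gave 4 falls among 7. TOP2A (chr17:40388525-40417896), the topoisomerase that untangles sister chromatids, had the most counts of any member, at 499.9, 517 and 493 CPM in si_NC and 412, 424 and 437 CPM in si_GRB2. It fell by 15.6%, with a log2 fold change of -0.25 ± 0.028 and adjusted p = 6.84e-06. Within condensin I the subunits did not share a call. NCAPG and NCAPD2, its HEAT-repeat subunits, fell, while the kleisin NCAPH and the ATPase core SMC2 and SMC4, which condensin II also uses, did not pass. NCAPG was at 40.3, 40.6 and 36.7 CPM in si_NC and 32.5, 36.5 and 32.8 CPM in si_GRB2 (-0.21 ± 0.055, adjusted p = 0.0089). NCAPD2 was at 115, 119 and 120.0 CPM in si_NC and 106, 106 and 104 CPM in si_GRB2 (-0.16 ± 0.032, adjusted p = 0.000966). Its opposite-strand neighbour MRPL51, with 215% as many reads and 383 shared bases of exon, gave -0.048 (adjusted p = 0.203). Both subunits were separated between groups, NCAPG only just. NCAPH had the only positive value beside CCNF, 0.067 ± 0.047 with adjusted p = 0.321 and a 95% interval of -0.032 to 0.167. SMC2 and SMC4 gave -0.043 ± 0.053 and -0.025 ± 0.030, with adjusted p = 0.599 for both. A difference in fold change between subunits was not tested. MKI67 (Ki-67), the coat of mitotic chromosomes and the usual stain for dividing cells, stood at 143, 136 and 148 CPM in si_NC and 121, 138 and 133 CPM in si_GRB2 (-0.12 ± 0.043, adjusted p = 0.0404). Its groups overlapped, since si_GRB2 replicate 2 was above si_NC replicate 2. Without si_GRB2 replicate 1 its log2 fold change was -0.072 (adjusted p = 0.211), and its call was also lost without si_NC replicate 1 (0.0539), si_NC replicate 3 (0.0980) and si_GRB2 replicate 3 (0.0702).

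Of the 8 spindle and microtubule proteins, 7 were tested and 4 fell, with a median of -0.13. CKAP2, a microtubule-stabilizing protein of the spindle, was at 65.9, 65.7 and 69.4 CPM in si_NC and 54.2, 57.8 and 61.2 CPM in si_GRB2 (-0.22 ± 0.046, adjusted p = 0.00173). TACC3, which crosslinks kinetochore fibres with clathrin and ch-TOG, was at 75.7, 79.7 and 78.5 CPM in si_NC and 68.4, 70.2 and 67.7 CPM in si_GRB2 (-0.18 ± 0.037, adjusted p = 0.00128). TMEM129, which overlaps TACC3 on the opposite strand over 132 bases of exon with 40.7% as many reads, gave -0.18 (adjusted p = 0.0204). HMMR, a spindle assembly factor, was at 28.9, 28.6 and 27.9 CPM in si_NC and 24.2, 27.4 and 24.0 CPM in si_GRB2 (-0.17 ± 0.057, adjusted p = 0.0288). TPX2, which activates AURKA on the spindle, was at 155, 165 and 149 CPM in si_NC and 138, 147 and 142 CPM in si_GRB2 (-0.13 ± 0.038, adjusted p = 0.0138). In each of these genes the groups were apart, by under 2 CPM in HMMR and TPX2. HMMR lost its call in DESeq2 (adjusted p = 0.0902). In edgeR with a library left out it kept its call only when si_NC replicate 3 or si_GRB2 replicate 2 was left out, and its adjusted p was 0.0639 and 0.0654 without si_NC replicates 1 and 2 and 0.115 and 0.119 without si_GRB2 replicates 1 and 3. TPX2 lost its call on leaving out si_NC replicate 2 (0.0719) or si_GRB2 replicate 1 (0.0698). GTSE1, a microtubule tip protein (-0.086 ± 0.056), ASPM, a spindle pole protein (-0.08 ± 0.051), and DLGAP5, which stabilizes kinetochore fibres (-0.012 ± 0.054), did not pass. ASPM passed without si_NC replicate 3, at -0.14 (adjusted p = 0.0242).

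NUSAP1, a microtubule-binding spindle protein, could not be tested, with 4, 7 and 3 reads in si_NC and 1, 2 and 2 in si_GRB2. A protein-coding gene of the same strand, listed as RP11-16O9.3 (ENSG00000285920, chr15:41284007-41380996), runs through it and shares 2938 bases of exon with it. That gene had 4043, 3751 and 4193 reads in si_NC and 3150, 3458 and 3151 in si_GRB2, a log2 fold change of -0.23 ± 0.030 with adjusted p = 2.28e-05. Reads of NUSAP1 and of this gene cannot be told apart in these counts, so the low count of NUSAP1 does not give its level.

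Cytokinesis gave 2 falls among 5 members, with a median of -0.07. PRC1 (chr15:90966040-90995629), which bundles the antiparallel microtubules of the central spindle, was at 103, 108 and 107 CPM in si_NC and 87.2, 93.0 and 95.6 CPM in si_GRB2 (-0.20 ± 0.039, adjusted p = 0.000746). A same-strand gene, AC068831.18, shares 3181 exon bases with it and had 11.4% as many reads. ANLN (anillin), a scaffold of the contractile ring, was at 223, 224 and 214 CPM in si_NC and 194, 209 and 206 CPM in si_GRB2 (-0.12 ± 0.033, adjusted p = 0.0114). Both were separated between groups, and ANLN lost its call without si_GRB2 replicate 1 (-0.086, adjusted p = 0.0628). RACGAP1 and ECT2, the GTPase-activating protein and the exchange factor that set RhoA activity at the cell equator, gave -0.068 ± 0.035 and -0.044 ± 0.033 and did not pass. CEP55, which recruits the abscission machinery to the midbody, gave -0.057 ± 0.048.

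In 4 lists of mitotic regulators that are not members, 8 of 50 genes were higher and 9 lower, with a median log2 fold change of 0.0088. Over all genes tested 15.2% were higher and 15.5% lower, so these shares are near the background, and the counts of the single lists below stand against the same shares. Of 16 APC/C subunits and partners 4 were lower and 0 higher, CDC27 with -0.25 (adjusted p = 0.000716) and ANAPC2 with -0.20 (0.00405) having the smallest adjusted p. Of 12 other condensin and cohesin subunits 4 were lower and 2 higher, among them CDCA5 (sororin, which keeps cohesin on DNA) at -0.17 and the condensin II kleisin NCAPH2 at -0.17. Of 11 subunits of the DREAM and MuvB complexes 3 were higher and 0 lower, with the histone-binding RBBP4 at 0.16 (adjusted p = 0.00404) and the pocket protein RBL2 (p130) at 0.22 (0.0108). In the group of Greatwall kinase, PP2A-B55 and the CDK-activating kinase, 3 of 11 were higher and 1 lower. ENSA, the Greatwall substrate that inhibits PP2A-B55, rose by 0.26 on the log2 scale (adjusted p = 1.57e-06), and PPP2CA, the catalytic subunit of PP2A, fell by 0.33 (adjusted p = 5.98e-06).

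**Figure D5:**
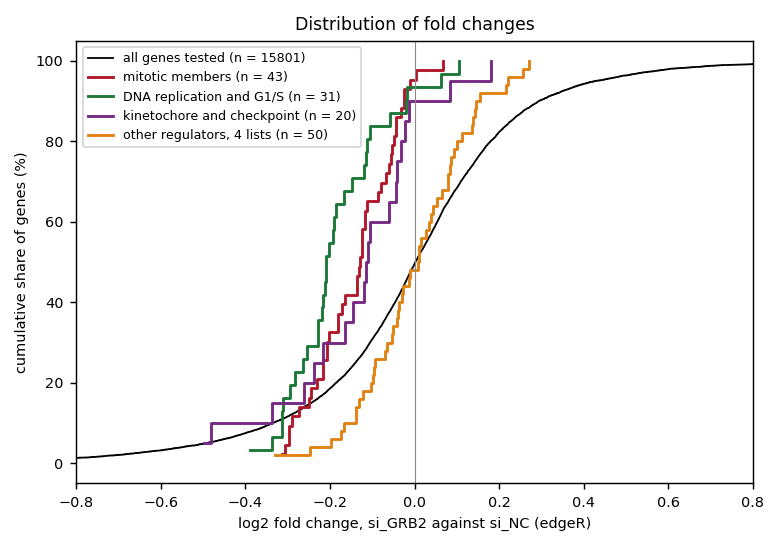
Curves give the cumulative share of genes in percent by edgeR log2 fold change, si_GRB2 against si_NC, for all 15801 genes tested, the 43 members, 31 DNA replication genes, 20 kinetochore genes and 50 other regulators. The members' curve lies left of that of all genes at its middle, with medians of -0.13 and 0.0019, and that of the other regulators stays near 0 at its middle.

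Lists of neighbouring steps of the cell cycle held calls in the lower direction only, where 15.5% of all genes tested were lower and 15.2% higher. Of 31 DNA replication and G1/S genes 22 were lower and 0 higher, with a median of -0.21, the smallest adjusted p being those of RRM2, the ribonucleotide reductase subunit (-0.31, adjusted p = 3.39e-07), and PCNA, the sliding clamp (-0.31, 4.16e-07). Of 20 kinetochore and checkpoint genes 9 were lower and 0 higher, with a median of -0.11, led by CDCA8 (borealin) at -0.48 (3.30e-07) and SPC24 at -0.50 (1.39e-06). The most negative member, FBXO5, was at -0.31. All of these values rest on the same 6 libraries, and differences between the lists were not tested.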

How the data were processed

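Strand-marked poly(A) libraries of SK-BR-3 cells (3 si_NC, 3 si_GRB2) were sequenced by the authors as paired reads, trimmed with FASTX-Toolkit and aligned to GRCh38 with HISAT2, and uniquely mapped reads were kept. The deposited count table holds reads per gene without normalization (30327 genes). The deposited FPKM table, computed by the authors, holds 29912 genes. The counting tool, its strand setting and the annotation are not given in the sources used here, and 99.7% of gene identifiers were found in GENCODE 44, which gave positions.

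Groups came from the sample descriptions. Counts were scaled with TMM factors in edgeR 4.0.16 under R 4.3.3. After filterByExpr, 15801 genes remained, on which its quasi-likelihood test compared si_GRB2 with si_NC without covariates, with Benjamini-Hochberg adjustment over all genes kept. SE was derived from each estimate and its F statistic. The edgeR and DESeq2 fits were tested on simulated counts in which every gene had the same biological spread. The limma fit was tested on CPM of those counts, so the fits on FPKM were not tested. With 24810378 to 28532480 counts on genes, precision is lowest for members with few reads. Alternatives were DESeq2 1.42.0 (the study's tool), its size factors, other low-count filters, a robust fit, a replicate block, limma 3.58.1 on log2(FPKM + 1) and log2(FPKM + 0.1), an adjusted p under 0.01, a test against a fold change of 1.5, total counts, and leaving out each library. Promoter windows came from a RefSeq table (GRCh38.p14).

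The members, role groups and lists were chosen with earlier results of these data known. In each role group, members with an adjusted p under 0.05 (at most the 5 with the largest log2 fold change in size) are given by library, and groups with fewer than 2 such members add those of highest FPKM. In each other list the 2 genes with the smallest adjusted p may be named. Markers and overlapping genes named beside a result were chosen after their values were seen.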

Additional observations from a re-analysis of the deposited data

How the results depend on the processing

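No member was higher at an adjusted p under 0.05, and none passed a fold change of 1.5 with an adjusted p under 0.01, in any alternative run. The count of members lower, 26 with edgeR, was 5 in limma on log2(FPKM + 1), 5 on log2(FPKM + 0.1), 11 on log2(FPKM + 1) with a mean FPKM of at least 1, and 17 with total counts in edgeR, a setting chosen after seeing the data. Of all genes tested in these settings, 1.89%, 2.03%, 9.07% and 11% were lower. The members' median log2 fold change, -0.13 with edgeR, was then -0.079, -0.082, -0.079 and -0.078. The median over all genes, 0.0019 with edgeR, was then 0.024, 0.042, 0.036 and 0.052. The cause of the lower counts on FPKM was not tested. Leaving out each library in turn gave 20 to 26 members lower, beside 12.2% to 14.5% of all genes tested, and medians from -0.146 to -0.130. GRB2 kept its direction and its call in the 16 alternatives, from -2.18 to -1.91.

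Same-numbered libraries deviated together with correlations of 0.232, -0.0948 and 0.0804. Libraries of unlike number had correlations from -0.282 to 0.228. With 3 libraries per group, these values cannot settle whether the numbers pair the samples. With the replicate block 25 members were lower, all of them among the 26, and ESPL1 was lost (adjusted p = 0.0594). Of all genes tested, 15.3% were lower with that block.

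Of 688 refits of single members, 563 kept direction and call, 94 lost the call (57 with FPKM, 24 without a library), 5 gained it and 26 turned direction, none of the 26 in a member called lower. With at least 10 counts in every library CCNF was -0.0024. On FPKM, CDC25B was 0.012, AURKA 0.020, SMC4 0.018 and DLGAP5 0.027 or 0.032. With total counts CDC25B was 0.019, AURKA 0.026, FOXM1 0.0015, SMC2 0.0071, SMC4 0.026, DLGAP5 0.039 and ECT2 0.0064. Without 1 library, CCNF ran from -0.018 to 0.017, DLGAP5 from -0.062 to 0.014, SMC2 from -0.083 to 0.023 and SMC4 from -0.045 to 0.0020. Depth limits CDC25C, with 1623 reads.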

Other observations

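Around NUSAP1, OIP5, a centromere protein on the opposite strand, was lower with a log2 fold change of -0.85 (edgeR adjusted p = 7.44e-08), and OIP5-AS1, a long noncoding RNA of the same strand as NUSAP1, was higher at 0.26 (adjusted p = 0.000202). Both overlap NUSAP1, and both were named after their values were seen. Beside FOXM1, RHNO1 on the opposite strand was lower at -0.23 (adjusted p = 0.00130). KREMEN2, which overlaps PKMYT1 on the opposite strand with 9.25% as many reads, was lower at -0.62 (adjusted p = 0.000170).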
